A study of Mus musculus with 6 samples.

Results

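The 10 genes described here, Sox4, Tox, Arpp21, Rag1, Rag2, Dntt, Cd24a, Ccr9, Themis and Dapl1, are genes of developing thymocytes and of recent thymic emigrants, the T cells that have newly left the thymus. They were taken by name from the 46983 genes of the deposited tables, by a list that sets no threshold on their values but was made with earlier results of these data known, and all 10 were found by symbol. They were read in naive CD4 T cells of the mouse lymph node to ask how their levels, which change as T cells mature, compare between libraries labelled as Cmtr1 conditional knockout (cKO) and as control. CMTR1 is an enzyme that adds a methyl group to the ribose next to the cap of mRNA.

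The cells were sorted as live naive cells by markers that included TCRb+, CD4+ and CD44-, from male mice whose age the labels do not give. All mice carried floxed Cmtr1 alleles (Cmtr1 fl/fl). The 2 control libraries came from mice negative for CD4cre, and the 4 libraries labelled Cmtr1 cKO came from mice positive for it. CD4cre is a recombinase driven by Cd4 regulatory sequences, which are active in the thymus before cells leave it. The groups thus differ in the transgene as well as in Cmtr1, and these cannot be told apart. Whether each library is a different mouse is not stated in the labels. Cmtr1 cKO 1 and 2 were closer to each other (chi-square over its degrees of freedom 1.87) than any other pair within a group (6.19 for the controls and 17.7 to 49.4 for the other Cmtr1 cKO pairs), so they may not be independent. With each of these left out in turn Sox4, Tox, Arpp21 and Dapl1 were still called and Themis was not. The p-values therefore measure only how these samples spread, and that spread may be technical.

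T cells mature in the thymus in steps. Early progenitors, which lack CD4 and CD8, rearrange the T cell receptor beta gene, and double-positive cells, which carry both, rearrange the alpha gene. RAG1 and RAG2 cut the DNA, terminal transferase (encoded by Dntt) adds bases at the joints, and the cell shuts these genes off after positive selection. Cells that leave the thymus keep traces of this history for a time, such as surface CD24, and lose them as they mature in lymph nodes.

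Of the 10 genes, 4 were higher in the libraries labelled Cmtr1 cKO (Sox4, Tox, Arpp21 and Themis), 1 was lower (Dapl1), 3 did not pass the test (Dntt, Cd24a and Ccr9), and 2 had too few reads to test (Rag1 and Rag2). Sox4 and Tox, encoding DNA-binding proteins of the HMG-box class, were 1.77-fold and 1.72-fold higher. Dapl1, a gene for a small protein named for its likeness to a death-associated protein, was at 0.643 of its control level in the fitted model. The recombination genes Rag1 and Rag2 were at or near 0 reads in every library, while Dntt was read in all 6. A gene is called higher or lower here at an adjusted p under 0.05 by the quasi-likelihood test of edgeR, adjusted by the Benjamini-Hochberg method over all 12748 genes tested. Among all genes tested, 4.66% were called higher and 6.77% lower. Arpp21 entered the test only through its reads in the Cmtr1 cKO libraries and so had to differ, which leaves 3 members called higher of 7 that did not enter in this way. The median log2 fold change was 0.33 over the 8 members that passed the filter on low counts and 0.00 over all tested genes. The median of the members includes Arpp21, whose way into the test favoured a higher value.

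Gene counts per library ran from 9513874 to 11949838. All levels are CPM, gene reads scaled to a common library size with TMM factors, and n = 2 controls and n = 4 Cmtr1 cKO libraries hold for every mean ± SD. Of the uniquely mapped reads, a part matched no annotated exon on the strand counted (the outside-exon share). It includes reads that lie on an exon but on its opposite strand. This share was 34.0% to 37.2% in the controls and 38.0% to 52.3% in the Cmtr1 cKO libraries, so it moved with the genotype. With this share as a further term in the fit Sox4, Tox and Themis were still called higher, at log2 fold changes of 0.95, 0.63 and 0.26, and the other calls among the members were lost. Cmtr1 cKO 3 stood apart in 1 gene annotated as ribosomal RNA, CT010467.1, with 4.77% of its gene counts against 0.0284% at most elsewhere, and without that gene the same 5 members were called. Cmtr1 itself had 11.2 and 11.4 CPM in the control libraries against 7.57 to 19.8 CPM in the libraries labelled Cmtr1 cKO (adjusted p = 0.461 by edgeR). The sources used here do not give the floxed exon. The Cmtr1 count therefore cannot check the labels, and each direction is that of the libraries as labelled. Of 10 defining markers of naive CD4 T cells all passed the filter on low counts, and their summed level was 5840 to 5897 CPM in the controls and 5553 to 6486 CPM in the Cmtr1 cKO libraries.

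The promoters of the called genes with a RefSeq entry are shown because these genes differed between the groups. The RefSeq table (GRCm38.p6) matched 8 of the 10 members by symbol, all but Tox and Cd24a. Each sequence is the 250 bases before the most upstream RefSeq start, read 5′ to 3′ on the gene's strand. RefSeq gives 9 starts for Arpp21 and 2 for Themis, and which start these cells use was not tested. Capitals mark matches, on either strand, to letters bound by factors of thymocytes or general transcription: CAGCTG and CAGGTG (E-boxes of E proteins), TGTGGT (Runx), CTTTGA (TCF/LEF), ACAATG (SOX) and TATAAA. No matches of different motifs overlapped.
Sox4 (chr13:28953700-28953949, minus strand): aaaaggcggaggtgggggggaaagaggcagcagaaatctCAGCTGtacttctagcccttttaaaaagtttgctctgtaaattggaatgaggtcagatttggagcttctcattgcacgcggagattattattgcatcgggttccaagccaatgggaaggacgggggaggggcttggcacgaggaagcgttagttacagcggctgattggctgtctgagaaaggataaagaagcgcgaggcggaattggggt
Arpp21 (chr9:112233723-112233972, minus strand): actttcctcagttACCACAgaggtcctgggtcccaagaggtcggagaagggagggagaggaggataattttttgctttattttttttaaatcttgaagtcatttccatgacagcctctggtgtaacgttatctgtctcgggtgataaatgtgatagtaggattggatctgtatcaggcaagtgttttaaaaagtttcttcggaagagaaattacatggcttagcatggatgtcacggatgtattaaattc
Themis (chr10:28668110-28668359, plus strand): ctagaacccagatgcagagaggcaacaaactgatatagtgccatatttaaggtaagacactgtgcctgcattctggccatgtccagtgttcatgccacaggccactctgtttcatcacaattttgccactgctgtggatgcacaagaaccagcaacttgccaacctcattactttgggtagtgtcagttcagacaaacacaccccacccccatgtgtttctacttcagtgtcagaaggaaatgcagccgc
Dapl1 (chr2:59484403-59484652, plus strand): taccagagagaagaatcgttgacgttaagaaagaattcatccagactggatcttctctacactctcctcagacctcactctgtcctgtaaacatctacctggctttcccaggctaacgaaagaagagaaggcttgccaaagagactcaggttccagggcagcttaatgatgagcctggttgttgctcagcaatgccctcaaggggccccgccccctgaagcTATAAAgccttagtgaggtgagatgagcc
The Sox4 window held 1 CAGCTG, which 13.0% of 32817 such windows in the RefSeq table also hold. The Arpp21 window held 1 match to the Runx letters (in 14.0% of windows), printed as the reverse complement. The Dapl1 window held 1 TATAAA (in 12.4% of windows), which starts 29 bases before the RefSeq start. In the Themis window none of the 6 motifs matched. GC content was 50.8% for Sox4, 40.4% for Arpp21, 48.0% for Themis and 50.0% for Dapl1, against a median of 52.4% over all windows. The Rag1 window, of a gene hardly read in these cells, had the most matches of the 8: 1 CAGCTG, 1 CAGGTG, 2 Runx matches and 1 SOX match. CAGGTG is found in 17.2% of all windows, CTTTGA in 13.8% and ACAATG in 10.7%. These matches describe the letters and say nothing of what binds there.

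Sox4 was the first of the transcription factors examined. It encodes a SOX-family protein found in T progenitors and other immature cells, and is a single-exon gene (ENSMUSG00000076431.4, chromosome 13, 28948919 to 28953713, minus strand, GRCm38). It had 22.6 and 30.5 CPM in the control libraries against 43.9, 47.7, 46.4 and 49.1 CPM in Cmtr1 cKO 1, 2, 3 and 4. Every Cmtr1 cKO library lay above both controls, and the controls differed more from each other than the 4 Cmtr1 cKO libraries did. The means were 26.6 ± 5.6 and 46.8 ± 2.2 CPM (SD), with a log2 fold change of 0.82 ± 0.12 (SE) and adjusted p = 0.00166 by edgeR. On the opposite strand, 54.6% of the Sox4 exon bases are shared with the non-coding gene Gm26735, which had 0 to 7 reads of its own in any library. The unstranded column held 908 Sox4 reads against 2583 in the stranded one, and on unstranded counts the log2 fold change was 0.50 (adjusted p = 0.069 by edgeR) and the call ended.

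Tox encodes an HMG-box protein needed for thymocytes to become CD4 T cells (ENSMUSG00000041272.11, chromosome 4, 6686353 to 6991557, minus strand). Its levels were 68.6 and 70.7 CPM in the control libraries against 120.3, 131, 119 and 109.6 CPM in Cmtr1 cKO 1 to 4. The controls lay within a few CPM of each other, and all 4 Cmtr1 cKO libraries were above them. The log2 fold change was 0.79 ± 0.08 (SE, adjusted p = 0.000398 by edgeR), from 69.7 ± 1.5 to 120.1 ± 8.8 CPM (SD). Tox4, an abundant relative, had 127.9 ± 3.1 and 132.6 ± 9.6 CPM (SD) and was not called (log2 fold change 0.05). Tox2 and Tox3 had too few reads to test, at most 5 and 1 in any library. Of the SOX relatives, Sox12 had 0.35 to 0.87 CPM in the control libraries against 0.65 to 1.89 CPM in the Cmtr1 cKO libraries and was not called (adjusted p = 0.275 by edgeR), and Sox11 had at most 1 read.

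Arpp21 encodes an RNA-binding protein with an R3H domain and is read in double-positive thymocytes (ENSMUSG00000032503.18, chromosome 9, 112065091 to 112235938, minus strand). It had 2 and 6 reads in the controls and 27, 20, 16 and 19 reads in Cmtr1 cKO 1 to 4. Those are 0.175 and 0.583 CPM against 2.499, 1.814, 1.693 and 1.634 CPM, so each Cmtr1 cKO library was above both controls, at a low level. The log2 fold change was 2.33 ± 0.49 (SE), a 5.04-fold difference with a 95% interval of 1.25 to 3.42 on the log2 scale (adjusted p = 0.0146 by edgeR). It passed the filter on low counts through the Cmtr1 cKO libraries only, since 0 of 2 controls and 4 of 4 Cmtr1 cKO libraries reached the minimum of 10 reads at the median depth, and a gene that enters this way had to differ. With the outside-exon share as covariate its log2 fold change was 2.04 and not called (adjusted p = 0.0829 by edgeR), and with a single control it was 1.703 (without control 1) or 3.38 (without control 2), neither called.

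An intron of Arpp21 holds the microRNA gene Mir128-2, whose mature product is shown because the host gene's reads differed. It is printed with its seed, bases 2 to 8, in capitals, and lies at chr9:112118644-112118664 on the minus strand (RefSeq, GRCm38.p6).
mmu-miR-128-3p: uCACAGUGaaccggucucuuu
The hairpin gene had 0 reads in all 6 libraries, in a protocol for total RNA that was not made for small RNAs. R3hdm1, a relative of Arpp21, had 130.9 ± 7.4 and 179.9 ± 35.7 CPM (SD) and was not called (log2 fold change 0.46 ± 0.17 SE, adjusted p = 0.109 by edgeR), with Cmtr1 cKO 4 at 129 CPM, between the controls.

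**Figure D1:**
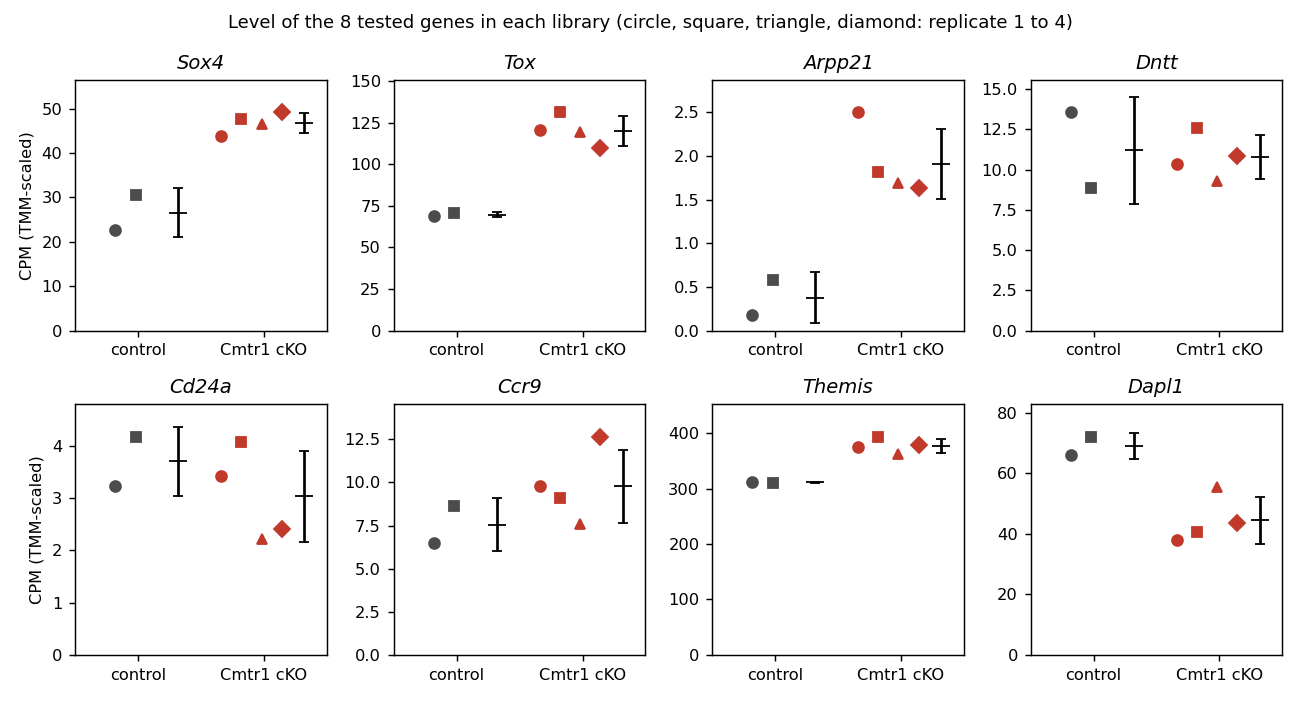
Level of each of the 8 tested genes (y axis, TMM-scaled CPM from 0) in the 2 control libraries (grey) and the 4 Cmtr1 cKO libraries (red), with the mean and SD of each group in black; the marker shape is the replicate number, which does not pair the groups. The groups do not overlap for Sox4, Tox, Arpp21, Themis and Dapl1, and they overlap for Dntt, Cd24a and Ccr9.

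The recombination genes were read next. Rag1 (ENSMUSG00000061311.6, chromosome 2, 101638282 to 101649501) had 3 reads in Cmtr1 cKO 2 and 0 in the other 5 libraries. Rag2 (ENSMUSG00000032864.4, chromosome 2, 101624718 to 101632529) had 0 reads in all 6. A count of 0 allows up to 3 reads, which is 0.258 to 0.317 CPM depending on the library and covers counting error only. No difference in Rag1 or Rag2 was thus detectable at this depth. Ptcra, the pre-TCR alpha chain of early thymocytes, also had 0 reads in all 6 libraries.

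Dntt, which encodes terminal transferase (ENSMUSG00000025014.13, chromosome 19, 41029275 to 41059525), was read in every library, unlike Rag1 and Rag2. It had 13.6 and 8.84 CPM in the control libraries against 10.4, 12.6, 9.31 and 10.8 CPM in Cmtr1 cKO 1 to 4, all of the latter between the controls. The means were 11.2 ± 3.3 and 10.8 ± 1.4 CPM (SD). The log2 fold change of -0.06 ± 0.19 (SE) was not called (adjusted p = 0.863 by edgeR), and its 95% interval was -0.47 to 0.35. Differences within that interval were not detectable.

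Other genes linked to this recombination or to the joining of cut DNA ends are read in most cells. Of 14 such genes tested, 1 was called, Lig4 (DNA ligase IV), which was lower at 9.63 ± 1.13 against 14.73 ± 0.05 CPM (SD), with a log2 fold change of -0.61 ± 0.15 (SE, adjusted p = 0.0231 by edgeR). The call of Lig4 ended with the covariate, with either control alone and without Cmtr1 cKO 1 or 2, with log2 fold changes of -0.75 to -0.43 over all alternatives. The most abundant of the others, the kinase genes Atm and Prkdc, had 286.4 and 172.4 CPM in the controls, with log2 fold changes of -0.02 and 0.14, and were not called. Polm, a polymerase related to terminal transferase, had 0.24 and was not called. The median over the 14 was 0.02.

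Cd24a and Ccr9 encode surface proteins of immature T cells. Cd24a (heat-stable antigen, ENSMUSG00000047139.9, chromosome 10, 43578284 to 43584265) had 3.24 and 4.18 CPM in the control libraries against 3.43, 4.08, 2.22 and 2.41 CPM in Cmtr1 cKO 1 to 4, from 21 to 45 reads. The groups overlapped, with Cmtr1 cKO 1 and 2 between the controls and Cmtr1 cKO 3 and 4 below them. The log2 fold change was -0.28 ± 0.29 (SE, adjusted p = 0.54 by edgeR), with a 95% interval of -0.91 to 0.35, and -0.77 with the outside-exon share as covariate, not called. Cd24a is also abundant in B cells, and the summed level of 8 B cell markers was 38.4 to 49.9 CPM in the control libraries against 26.1 to 54.0 CPM in the Cmtr1 cKO libraries. Of these markers 0 were called by edgeR, 0 had an unadjusted p under 0.05, and 0 were called by DESeq2. The part of B cell RNA in the Cd24a counts was not tested.

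Ccr9, the receptor for the thymic and gut chemokine CCL25 (ENSMUSG00000029530.16, chromosome 9, 123678439 to 123784330), had 6.47 and 8.64 CPM in the controls. It had 9.81, 9.07, 7.62 and 12.6 CPM in Cmtr1 cKO 1 to 4, so that Cmtr1 cKO 3 lay below control 2 and the other 3 above both controls. The log2 fold change was 0.38 ± 0.22 (SE, adjusted p = 0.25 by edgeR), with a 95% interval of -0.09 to 0.85, and 0.76 with the outside-exon share as covariate, not called (adjusted p = 0.0664 by edgeR). Of the reads over Ccr9 exons in the stranded columns, 31.2% were on the opposite strand, the largest share among the 8 tested members. The integrin genes Itga4 and Itgb7, which act with CCR9 in homing to the gut, were abundant and not called (log2 fold changes -0.09 and -0.07). Of 7 traffic genes tested in this list, 1 was called. It was Gpr183, a receptor for oxysterols, which fell from 147.4 ± 1.8 to 94.2 ± 10.9 CPM (SD), a log2 fold change of -0.65 ± 0.10 (SE, adjusted p = 0.00199 by edgeR). Without control 2 Gpr183 had -0.62 and was not called (adjusted p = 0.0554 by edgeR). Ccr8, another chemokine receptor, was higher at 8.20 ± 1.05 against 3.48 ± 1.76 CPM (SD, log2 fold change 1.22 ± 0.27 SE, adjusted p = 0.0162 by edgeR). Its value ran from 0.81 to 1.88 over the alternatives, and it was not called with the covariate or without control 2.

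Themis regulates signals of the T cell receptor during positive selection (ENSMUSG00000049109.15, chromosome 10, 28668360 to 28883818). It was at 312 and 310.3 CPM in the controls, against 375, 394, 362 and 379.5 CPM in Cmtr1 cKO 1 to 4, with no overlap. The difference was small, 1.21-fold, with a log2 fold change of 0.28 ± 0.07 (SE, adjusted p = 0.0301 by edgeR), against a spread of 1.4 and 12.9 CPM (SD) within the groups. Its call ended when either control or Cmtr1 cKO 1, 2 or 3 was left out, at log2 fold changes of 0.29, 0.29, 0.28, 0.26 and 0.31. Of 10 partners of Themis near the T cell receptor, 1 was called, the adaptor Grb2 that binds Themis, which was lower at 62.8 ± 6.7 against 79.0 ± 5.1 CPM (SD, log2 fold change -0.33, adjusted p = 0.0486 by edgeR). The Grb2 call ended under 10 of the 15 alternatives. The kinase gene Lck, among the most abundant of these partners, had a log2 fold change of -0.11 and was not called.

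Dapl1 was the 1 member that was lower (ENSMUSG00000026989.5, chromosome 2, 59484653 to 59505020, plus strand). It had 65.9 and 72.1 CPM in the control libraries against 38.0, 40.5, 55.5 and 43.6 CPM in Cmtr1 cKO 1 to 4. All 4 were below both controls, Cmtr1 cKO 3 nearest to them. The means were 69.0 ± 4.3 and 44.4 ± 7.8 CPM (SD), with a log2 fold change of -0.64 ± 0.13 (SE, adjusted p = 0.0116 by edgeR). With the outside-exon share as covariate its log2 fold change was -0.49 and not called (adjusted p = 0.31 by edgeR). Without control 1 or control 2 the values of -0.69 and -0.56 were not called either. Dap, which encodes death-associated protein 1, was also lower at 20.9 ± 2.7 against 29.5 ± 3.7 CPM (SD, log2 fold change -0.49 ± 0.13 SE, adjusted p = 0.0344 by edgeR), and was not called under 7 of the 15 alternatives.

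**Figure D2:**
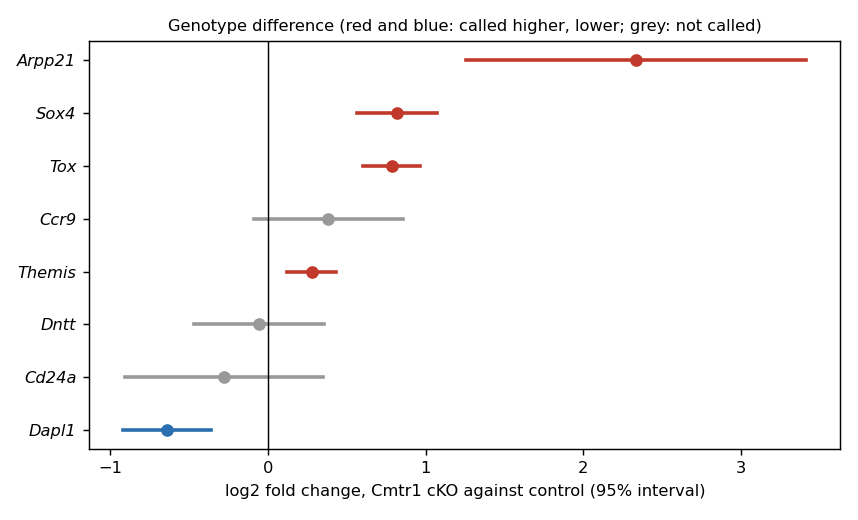
Log2 fold change of the 8 tested genes (x axis, Cmtr1 cKO against control) with its 95% interval from edgeR's quasi-likelihood fit; red and blue mark genes called higher and lower, grey those not called. Arpp21 has the widest interval, 1.25 to 3.42, and the intervals of Dntt, Cd24a and Ccr9 include 0.

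In all, 4 of the 8 tested members had every Cmtr1 cKO library above both controls and 1 had every one below. Over all tested genes 18.2% were placed above in this way and 20.8% below. Arpp21, 1 of the 4, entered the test only through its Cmtr1 cKO reads, so the filter itself favoured this placing. Per Cmtr1 cKO library against the control mean, the log2 differences (with 0.25 CPM added) were 0.72, 0.84, 0.80 and 0.88 for Sox4 and 0.79, 0.91, 0.77 and 0.65 for Tox. Sox4 was thus highest in Cmtr1 cKO 4, the library with the lowest outside-exon share of its group, and Tox was lowest there. For Dapl1 they were -0.85, -0.77, -0.31 and -0.66, so that Cmtr1 cKO 3 had the smallest difference. With libraries scaled by total counts alone, which moved the median of all genes by 0.13 on the log2 scale, all 5 calls among the members held. Under that scaling 1441 genes in all were called higher and 418 lower, against 594 and 863 with TMM.

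Levels were compared between genes as CPM per kilobase of merged exons, which understates genes with many alternative exons such as Arpp21. In the controls Dapl1 came first at 101.6 ± 6.4, Themis followed at 26.64 ± 0.12, then Tox at 9.16 ± 0.19, Sox4 at 5.54 ± 1.16 and Dntt at 4.88 ± 1.46 (SD). Sox4 and Dntt were not separated beyond their spread in the controls. Cd24a had 1.44 ± 0.26, Ccr9 0.737 ± 0.150 and Arpp21 0.0217 ± 0.0166 (SD). The order was the same in the Cmtr1 cKO libraries, where Sox4 at 9.76 ± 0.46 lay above Dntt at 4.70 ± 0.60 (SD) and Dapl1 at 65.4 ± 11.4 was still first.

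The genes around the members were read from lists grouped by stage. Of 13 other genes of the double-positive stage 11 could be tested and 0 were called by edgeR. At an unadjusted p under 0.05 there were 6, DESeq2 called 1 (Satb1, log2 fold change 0.27) and voom with quality weights 3 (Satb1, Cd1d1 and, lower, Cd8b1). Over all tested genes DESeq2 called 11.5% and voom with quality weights 24.9%, which holds beside the lists below too. The share of all genes at an unadjusted p under 0.05 is not given, so such counts are not read as results about any list. Satb1, a chromatin organiser, was the most abundant of this list at 1326 ± 76 and 1589 ± 108 CPM (SD). Cd8a, which double-positive cells share with CD8 T cells, had 4.72 and 3.20 CPM in the control libraries against 0.63 to 2.68 CPM in the Cmtr1 cKO libraries (log2 fold change -1.02, adjusted p = 0.104 by edgeR). Of 14 genes of early progenitors 10 could be tested, 0 were called by edgeR and 0 by DESeq2, and 1 had an unadjusted p under 0.05. Notch1 and its target Dtx1, the most abundant of these, had -0.07 and -0.29.

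A list of genes linked to positive selection and CD4 lineage choice, not all of them switched on at that step, held 2 called higher of 14. This count was 7 with the outside-exon share as covariate and 5 with total counts as the scaling. Nr4a1, an immediate target of the T cell receptor, rose from 29.0 ± 4.0 to 44.0 ± 3.7 CPM (SD, log2 fold change 0.61 ± 0.11 SE, adjusted p = 0.00803 by edgeR). Gata3, a factor of the CD4 lineage, rose by 0.33 ± 0.08 (SE, adjusted p = 0.0287) on the log2 scale in edgeR, and the Gata3 call ended with either control alone or without Cmtr1 cKO 2 or 3. Nr4a1 was not called without control 1. The abundant Ikzf1 and Bcl11b, lymphoid transcription factors, had -0.11 and -0.17 and were not called. Zbtb7b, the factor that fixes the CD4 lineage, had 0.12 and Cd5 0.13, and neither was called.

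Genes known to rise as emigrants mature were called in both directions, 3 higher and 4 lower of 22, with a median log2 fold change of -0.06. Ly6c1, a surface protein of mature cells, fell most, from 57.6 ± 6.5 to 30.3 ± 3.9 CPM (SD, log2 fold change -0.93 ± 0.12 SE, adjusted p = 0.000805 by edgeR). Cd55, a complement regulator, fell by 0.43, the lymph node homing receptor Ccr7 by 0.36 and its regulator Foxo1 by 0.35 on the log2 scale. Bcl2, the survival gene, rose by 0.58, and the GTPase genes Gimap3 and Gimap5 by 0.47 and 0.35. With total counts as the scaling Ccr7 and Foxo1 were not called. With the covariate Ccr7, Cd55, Bcl2 and Gimap5 were not called, at log2 fold changes of -0.10, -0.43, 0.40 and 0.26, and Ccr7 was called under only 6 of the 15 alternatives. In addition, without control 1 or control 2 a total of 4 and 6 of the 7 were not called. Klf2 and S1pr1, which let mature thymocytes leave the thymus, had -0.03 and -0.24, and Il7r and Ptprc had -0.12 and 0.15, none of them called. The Qa2 genes H2-Q6 and H2-Q7 had 0.30 and -0.09 and were not called, but they are close paralogs whose uniquely mapped counts are uncertain.

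Other surface genes linked to recent emigrants gave 0 calls among 7 tested by edgeR and 0 by DESeq2, with 3 at an unadjusted p under 0.05 and 2 called lower by voom with quality weights (Izumo1r and Cxcr4). Igfbp4 and Pecam1, the most abundant, had 0.23 and 0.06. Itgae, the CD103 integrin, had 5.68 and 6.12 CPM in the control libraries against 2.84 to 4.97 CPM in the Cmtr1 cKO libraries (log2 fold change -0.66, adjusted p = 0.0929 by edgeR).

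**Figure D3:**
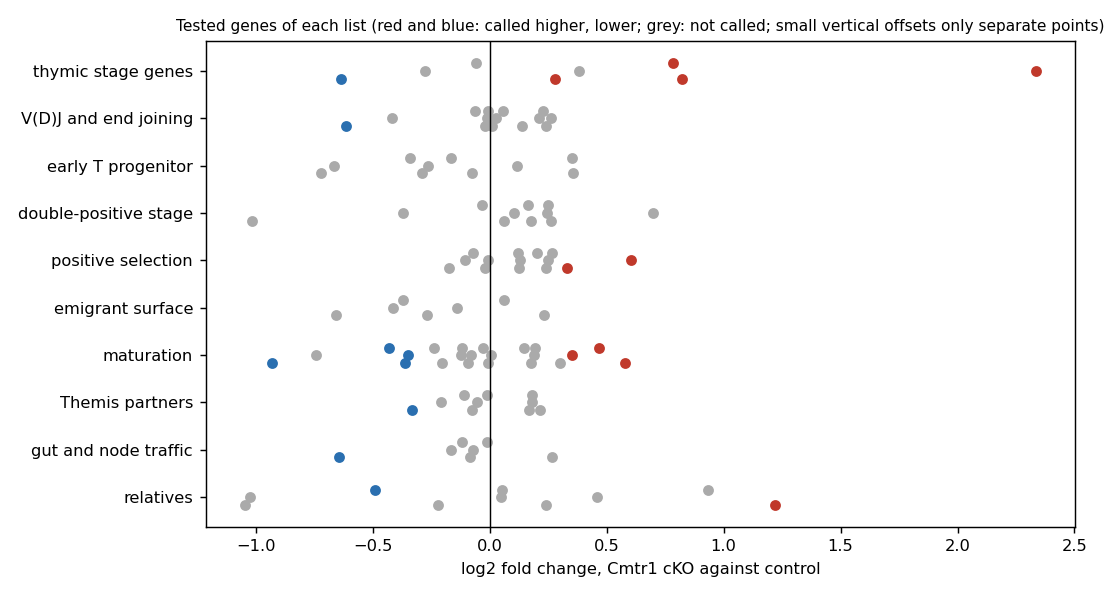
Log2 fold change (x axis, Cmtr1 cKO against control) of every tested gene in the list of 10 members (top row) and in 9 lists of related genes; red and blue mark genes called higher and lower, grey those not called. The maturation list holds calls on both sides, 3 higher and 4 lower, and the lists of the double-positive stage, early progenitors and emigrant surface genes hold none.

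Markers of other cells moved with the genotype in part. The 8 NK and cytotoxic markers summed to 54.3 to 63.3 CPM in the controls against 16.5 to 20.8 CPM in the Cmtr1 cKO libraries. Of 4 tested, 2 were called lower, Prf1 and Klrd1, at log2 fold changes of -1.95 and -1.92. Prf1 alone was most of each sum, with 47.65 and 36.22 CPM in the controls and 8.42 to 11.97 CPM in Cmtr1 cKO. Gzma and Eomes were not called (-0.53 and -0.77). Ncr1, Klrb1c, Gzmb and Tbx21 had too few reads to test. Their means did not fall, at 0.18 and 0.25, 0.05 and 0.14, 0.17 and 0.28, and 0.51 and 0.58 CPM (control and Cmtr1 cKO). The 12 markers of activated or memory T cells summed to 181.5 to 190.0 and 136.4 to 161.5 CPM, with 3 of 7 tested called lower, Cd44, Cxcr5 and Il18r1. These were called under 13, 10 and 9 of the 15 alternatives, and Cxcr5 had -0.52 without control 2 against -1.05 with all libraries. The 5 CD8 T cell markers summed to 71.2 to 80.4 and 58.3 to 68.1 CPM, and Nkg7 was called lower, under 5 of the 15 alternatives only. Regulatory T cell markers, relevant to Tox, summed to 272.7 to 331.1 and 259.6 to 341.2 CPM, overlapping, with 0 of 7 called by edgeR (1 at an unadjusted p under 0.05, 0 by DESeq2). The 9 myeloid markers summed to 6.51 to 21.4 and 5.85 to 8.53 CPM, highest in control 1. Of 3 tested 0 were called by edgeR, 1 had an unadjusted p under 0.05 and DESeq2 called 1. Lyz2 had 11.2 and 2.33 CPM in controls 1 and 2 against 1.12 to 2.43 CPM in Cmtr1 cKO. The 7 markers of plasmacytoid dendritic cells, which can express Ccr9, summed to 52.1 to 56.3 and 45.3 to 54.0 CPM. Of 4 tested 0 were called by edgeR or DESeq2, 2 had an unadjusted p under 0.05 and voom with quality weights called 2. Of gamma delta and invariant NKT cell markers the sums were 10.8 to 11.3 and 13.2 to 14.7 CPM, with 0 of 3 tested called by edgeR (1 at an unadjusted p under 0.05, 0 by DESeq2), Trdc being the most abundant and Zbtb16, Sox13 and Il23r at 3 reads or fewer. The 7 erythroid and platelet markers summed to 1.66 to 3.79 and 0.741 to 2.45 CPM. Of 9 markers of thymic and lymph node stroma 3 could be tested, Epcam, Ccl25 and Pecam1, and 0 were called by edgeR. Their means in control and Cmtr1 cKO were 1.66 and 2.11, 4.69 and 5.65, and 313.8 and 326.9 CPM. The thymic epithelial gene Psmb11 had 0 reads in all libraries. The part of such cells in the differences of the members was not tested, and in bulk RNA fewer cells of a type and less RNA per cell cannot be told apart.

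The tested genes nearest in profile to each called member were taken by the root mean square difference of log2 CPM over the 6 libraries, with 0.5 CPM added and each gene centred on its own mean. For Tox these were Ccna2 (0.05), Dync2h1 (0.07) and 1600020E01Rik (0.07). Ccna2 was low, with means of 1.29 and 2.68 CPM, and its log2 fold change was 1.05 against 0.79 for Tox. At such levels the added 0.5 CPM shrinks a difference, so its nearness to Tox depends on that offset. For Sox4 the nearest were Gm37678 (0.08), Akap1 (0.11) and Gpr157 (0.11), and for Arpp21 2610307P16Rik (0.12), Kif7 (0.18) and Gm23205 (0.20). Gm37678, Gpr157 and Gm23205 were low too, with control means of 1.07, 0.79 and 0.33 CPM. Dapl1 was nearest to Fam120aos (0.05), Acoxl (0.07) and Sh3tc1 (0.09). Genes picked in this way share the direction of their member by the choice itself. Themis was nearest to Ttc37, Clpb and Arrb2, at 0.03 each.

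**Figure D4:**
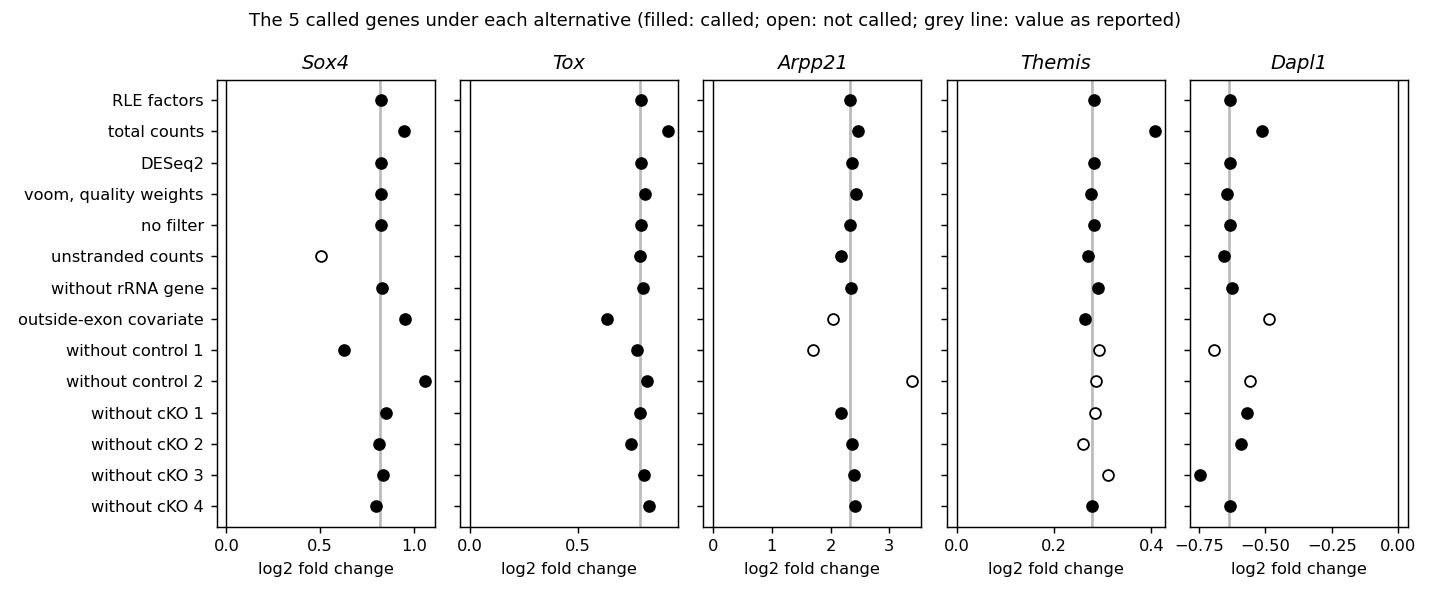
Log2 fold change (x axis) of the 5 called members under each of 14 of the 15 alternative analyses (rows; the replicate block is not drawn); filled points were called, open points were not, the grey line is the value in the text and the black line is 0. Tox was called in every row, Sox4 in all but the unstranded counts, and Arpp21, Themis and Dapl1 were not called with a single control.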

How the data were processed

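The 6 libraries, 2 control and 4 Cmtr1 cKO by their titles, hold rRNA-depleted RNA of sorted naive CD4 T cells. The deposited values are raw read counts per gene in STAR's layout. The submitters' processing notes list STAR 2.5.2b and edgeR as tools, with GRCm38 and mm10 as builds. Gene models behind the counts were not given in the sources used here. Counts on the gene's own strand were used, which exceeded the other strand 5.57 to 22.7 times. Identifiers were matched without version to GENCODE vM21 (46488 of 46983). Rows that name no gene, 52.1% to 62.0% of reads, were left out. The 10 members and all lists were chosen with earlier results of these data known.

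Genes passing filterByExpr (12748) were fitted with edgeR 4.0.16 in R 4.3.3 (TMM, glmQLFit robust, glmQLFTest, genotype only), tested on simulated data first. SE is the log2 fold change divided by the square root of F. The 15 alternatives used DESeq2 1.42.0, limma 3.58.1 (voom), other scaling, filter or column, a covariate (the outside-exon share), a block and libraries left out. Every called context gene and the 2 most abundant others per list were to be named, other genes were chosen after their values were seen. Some genes that this rule names are not reported here. No replicate pair was within sampling noise (1.87 for Cmtr1 cKO 1 and 2, the closest, by chi-square over its degrees of freedom). Each library was counted as 1 sample, which this does not show to be independent.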

Additional observations from a re-analysis of the deposited data

How the results depend on the processing

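The direction of each of the 5 called members held under all 15 alternatives, and Tox was called in all of them. Genes called in all numbered 1457, 3170 with voom and quality weights, 2272 without a filter, 666 with the outside-exon share as covariate, and 193 to 3880 with 1 library left out (3880 without Cmtr1 cKO 4). With 1 library left out 2 to 4 members were called higher and 0 to 1 lower. Without control 1 or control 2 the numbers were 2 and 0, and the lone control is assumed to vary like the other group. With the covariate 0 members were called lower. Dntt, not called anywhere, turned to 0.069 with total counts and ran from -0.31 to 0.30 with 1 library left out. With the replicate number as a block 4842 genes were called, the same numbers of members were called higher and lower, Dntt had 0.043 and Cd24a 0.021, both turned in sign. The same-numbered libraries share only a number, and only 2 numbers are shared. The correlation of their deviations over genes was 0.13 for number 1 and -0.14 for number 2. With 2 controls the deviations of control 2 are the negative of those of control 1, and Cmtr1 cKO 1 and 2 were close to each other. These correlations therefore cannot decide whether the numbers pair the libraries. Of 270 recomputed counts of the context lists, 187 stayed within 1.5 times. The cause of these changes was not tested beyond the fewer samples of the left-out fits. Depth limits Rag1, Rag2, Arpp21 and Cd24a, with at most 45 reads in any library.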

Other observations

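Gm28043, which overlaps Cmtr1 on the same strand, had 4.28 and 4.66 CPM in the controls and 7.48 to 11.4 CPM in the Cmtr1 cKO libraries (log2 fold change 1.12 ± 0.21 SE, adjusted p = 0.00887 by edgeR). Dntt had 10.2% of its stranded reads on the opposite strand, against 0.05% for Themis and 0.12% for Dapl1. B230118H07Rik, which shares 80 exon bases with Rag1 on the same strand, had 5 to 23 reads in the 6 libraries.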
